A study of Mus musculus with 4 samples.

Results

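Neighbouring EBF1-wt peaks, defined as peaks with another EBF1-wt summit on the same chromosome within 2000 bp, were described here. The rule was applied to the deposited EBF1-wt peak list on chromosomes 1 to 19 and X. It selected 424 of the 4419 peaks there (9.59%), out of 4422 in the whole list. Chaining summits that lay at most 2000 bp apart placed the 424 members in 207 groups, of which 197 held 2 peaks, 10 held 3 and 0 held 4 or more. The remaining 3995 peaks are called lone peaks below. Members were chosen by the summit positions of the EBF1-wt list alone, so their number and the upper end of their spacing follow from the rule.

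EBF1 (early B-cell factor 1) is a transcription factor that specifies and maintains the B-cell lineage. It binds DNA as a homodimer through a zinc-coordinating DNA-binding domain and opens and activates regulatory elements of B-lineage genes, some of which carry several EBF1 sites. A ChIP-seq peak is a stretch of genome where immunoprecipitated fragments pile up, and its summit is the position of highest coverage. Neighbouring summits therefore describe how occupied places are arranged inside 1 locus.

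The series held 4 libraries, a ChIP and an input for EBF1-wt and the same for EBF1-H240A, from A-MuLV (Abelson murine leukemia virus) transformed pro-B cells of C57BL/6 origin. All cells were Ebf1fl/fl RERTCre, meaning that both endogenous Ebf1 copies can be deleted by a tamoxifen-activated Cre recombinase. They received either wild-type EBF1 or EBF1-H240A, which has a substitution in EBF1, from a retroviral construct that also encodes GFP, and were exposed to 2 μM 4-hydroxytamoxifen from 24 h after transduction. The comparison asks whether the substitution changes where EBF1 is bound; whether the transformed line is 1 clone is not stated in the labels. The cells were a transformed line, EBF1 came from a transgene, and residual endogenous protein is not measured by the peak lists. There was 1 library per protein, so no difference below has a replicate check and no p-value is given. The lists hold no expression values, and the labelled cell type was not checked against marker genes.

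Heights are given as fragments at the summit. In the EBF1-wt list 1 fragment counts 0.635 in the deposited pileup, and in the EBF1-H240A list 1 fragment counts 1. All EBF1-wt peaks had a median of 49 fragments (18 to 322), and the 2757 EBF1-H240A peaks on the same chromosomes had a median of 25 (10 to 320). The sources used here give no library totals. The EBF1-H240A library gave fewer fragments at the same sites, with a median of 0.440 EBF1-H240A fragments per EBF1-wt fragment over 2002 lone peaks called in both lists. A peak missing from the EBF1-H240A list is therefore not shown to be unoccupied. Counts carry exact 95% Poisson intervals and shares carry 95% Wilson intervals. Both cover counting error only, PCR reads are not independent molecules, and members of a group share a locus, so intervals over members are too narrow.

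Neighbouring EBF1-wt summits lay a median of 994 bp apart (order-statistic 95% interval 889 to 1104, 217 adjacent spacings). The spacings ran from 317 to 1995 bp, and the middle 50% lay between 713 and 1401 bp. No spacing was 300 bp or less, 20 (9.22%) were 301 to 500 bp, 89 (41.0%) were 501 to 1000 bp, 61 (28.1%) were 1001 to 1500 bp and 47 (21.7%) were 1501 to 2000 bp. The most filled 100 bp interval was 800 to 899 bp, with 24 spacings. Between the intervals themselves the gap was 79 to 1803 bp, with a median of 667 bp. Each interval carries a single summit, the narrowest was 190 bp, and chromatin had been sheared to 300 bp on average, so sites closer than about that length could be listed as 1 peak. The absence of short spacings is therefore no measure of how close sites can lie.

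**Figure D1:**
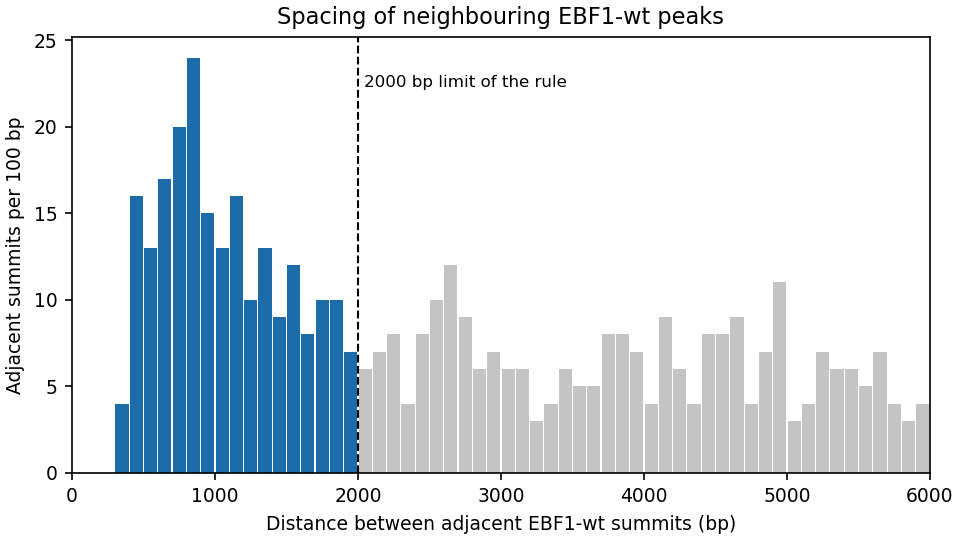
Number of adjacent EBF1-wt summits (vertical axis) per 100 bp of distance (horizontal axis, bp), with distances up to 2000 bp in blue and larger ones in grey; the dashed line is the limit of the rule. The blue bars peak at 800 to 899 bp with 24 spacings, no bar stands below 300 bp, and the grey bars hold at most 12 spacings each.

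Short distances were more frequent than longer ones in the whole list. There were 109 adjacent summits 1 to 1000 bp apart and 108 at 1001 to 2000 bp, against 77 at 2001 to 3000 bp, 58 at 3001 to 4000 bp, 70 at 4001 to 5000 bp and 42 at 10001 to 11000 bp. Spacings went on beyond the limit of 2000 bp without a gap. Just inside it were spacings of 1944 bp on chromosome 2 (40 and 197 fragments), 1975 bp on chromosome 7 (24 and 36) and 1995 bp on chromosome 8 (37 and 27). Just outside were 2020 bp on chromosome 5 (33 and 32 fragments), 2022 bp on chromosome 15 (59 and 33) and 2036 bp on chromosome 8 (44 and 46).

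Members resembled lone peaks in height. They had a median of 51 fragments (middle 50% from 35 to 85), against 48 (35 to 75) at lone peaks, and a median width of 300 bp against 286 bp. Their deposited fold enrichment was slightly lower all the same, with medians of 8.34 and 8.66. The fold divides the pileup by a local background of the peak caller, and this background, recovered as (pileup + 1) / fold − 1, was higher at members: 2.85 against 2.47 pileup units at the median. Without chromosome 17 the medians were 2.67 and 2.47. Within groups of 2, the larger background exceeded the smaller by a median factor of 1.33. Whether background takes part in the calling of neighbours was not tested.

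Inside a group, heights were usually unequal. In the 197 groups of 2, the taller member had a median of 75 fragments (27 to 322) and the lower member 36 (20 to 187), and the lower-to-taller ratio had a median of 0.593 (0.535 to 0.641). The ratio ran from 0.118 to 1, with the middle 50% between 0.393 and 0.776. In 94 groups (47.7%) the Poisson intervals of the members did not overlap, so their heights differed by more than counting error. In 103 groups the intervals overlapped, and the order of the members is not settled by these intervals. Naming the taller member after its count makes inequality appear in any case. Adjacent lone peaks 2 to 20 kb apart, taken as a comparison (683 pairs, in which a peak can occur more than once), had a median ratio of 0.585, close to the value of the groups and inside its interval. The taller member stood at the lower coordinate in 84 of the 195 groups without equal pileups.

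Relative height showed no order with spacing. The median ratio was 0.592 (0.531 to 0.674) in the 47 groups with summits 301 to 700 bp apart and 0.526 (0.449 to 0.712) in the 51 groups at 701 to 1000 bp. It was 0.596 (0.5 to 0.75) in the 57 groups at 1001 to 1500 bp and 0.559 (0.467 to 0.687) in the 42 groups at 1501 to 2000 bp. All 4 intervals overlapped. Height and width went together, with median widths of 345 bp for taller and 253 bp for lower members.

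**Figure D2:**
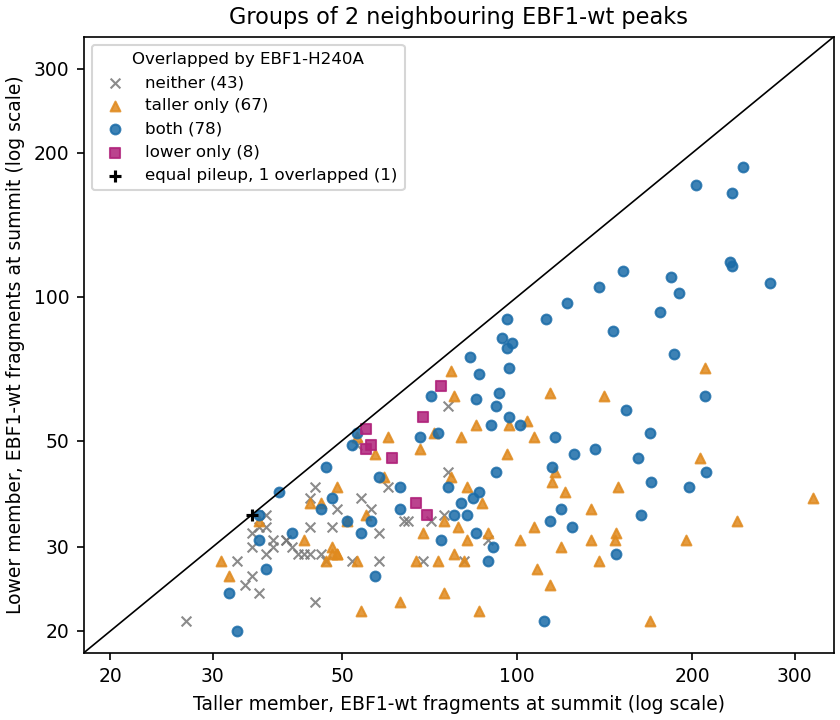
EBF1-wt fragments at the summit of the taller (horizontal) and lower (vertical) member of each of the 197 groups of 2, on log scales, with symbols for which member an EBF1-H240A peak overlapped; the line marks equal heights. Taller members reach 272 fragments in the 78 groups with both overlapped, 322 in the 67 with only the taller, 89 in the 43 with neither and 74 in the 8 with only the lower.

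More members than lone peaks were overlapped by an EBF1-H240A peak under the 1 bp rule. Of the 424 members, 248 were overlapped (58.5%, 53.7 to 63.1), against 50.9% of all EBF1-wt peaks tested and 2002 of 3995 lone peaks (50.1%, 48.6 to 51.7). Part of this gap went with height: lone peaks weighted to the members' deciles of fragments gave 52.6%, which lies just below the members' interval. The remainder depended on how overlap was counted. With overlap of at least 50% of both peaks, 52.4% (47.6 to 57.1) of members qualified, against 51.4% of lone peaks at the same fragments. With summits within 100 bp the values were 54.0% (49.3 to 58.7) and 51.2%, so under both stricter rules the lone-peak value lay inside the members' interval.

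Overlap climbed with height in members as in lone peaks. In the lowest decile (18 to 28 fragments) 7 of 34 members were overlapped (20.6%, 10.3 to 36.8), and in the highest (121 to 322 fragments) 49 of 49 were (100%, 92.7 to 100). Members exceeded lone peaks in 8 of the 10 deciles, the widest gap being 37.5% (25.2 to 51.6) against 22.9% (19.0 to 27.4) at 34 to 37 fragments. In the other two, the shares were 57.9% and 58.8% at 56 to 68 fragments, and 77.6% and 78.4% at 69 to 86 fragments. The intervals of members and lone peaks overlapped in every decile. Spacing made no difference that these numbers resolve. Members in groups of 2 were overlapped in 60.6%, 56.9%, 60.5% and 57.1% of cases from the shortest to the longest of the 4 spacing classes above. The shortest class holds most of the groups in which a single EBF1-H240A peak reached over both members, with spacings of 406 to 474 bp (described below). Such peaks raise its share. Shares by spacing were not computed without these groups or under the stricter overlap rules. Whether the shares stay alike there was not tested.

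**Figure D3:**
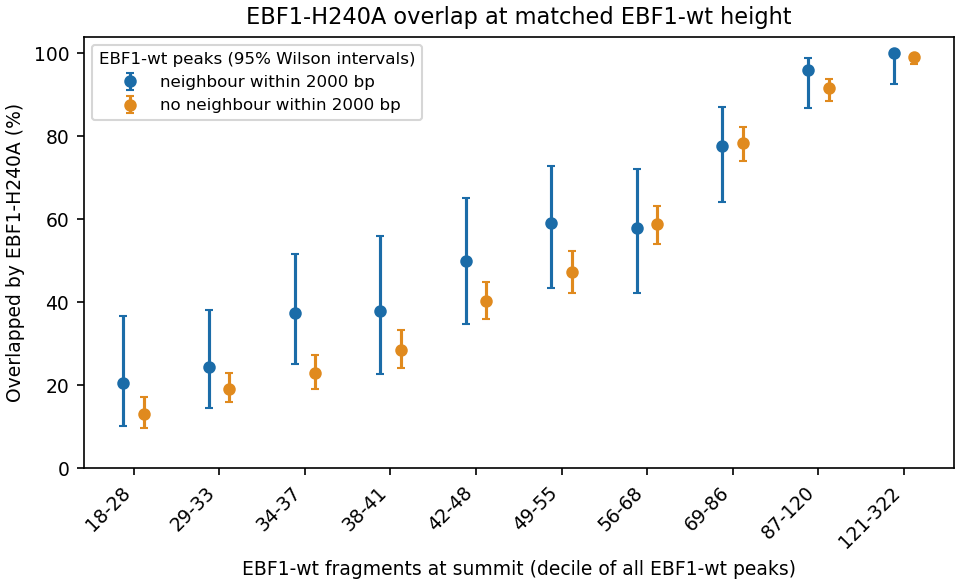
Share of EBF1-wt peaks overlapped by an EBF1-H240A peak (vertical axis, %) in deciles of EBF1-wt fragments at the summit (horizontal axis), for members (blue) and lone peaks (orange), with 95% Wilson intervals. Both series climb from 20.6% and 13.0% in the lowest decile to 100% and 99% in the highest, and their intervals overlap in every decile.

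Where a single member of a group was overlapped, it was mostly the taller one. Both members were overlapped in 78 of the 197 groups of 2 (39.6%, 33.0 to 46.6), only the taller in 67 (34.0%, 27.8 to 40.9), only the lower in 8 (4.06%, 2.07 to 7.81) and neither in 43 (21.8%, 16.6 to 28.1). In 1 group of equal pileups a single member was overlapped. For adjacent lone peaks 2 to 20 kb apart the corresponding shares were 31.3%, 40.1%, 7.03% and 21.4%. In both sets a single overlapped peak was mostly the taller one. The Wilson intervals of groups and lone pairs overlapped for all 4 classes. For both overlapped they met only near their ends (33.0 to 46.6 in groups, 28.0 to 34.9 in lone pairs). Overlap of intervals is no test of a difference, and whether groups and lone pairs differ was not tested.

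The class of a group went with the heights of its members. Groups with both members overlapped had median heights of 93.5 and 46.5 fragments, groups with only the taller 80 and 34, and groups with neither 45 and 31. Median spacing hardly differed between them, at 997, 1003 and 975 bp. Among the 50 groups with a ratio under 0.4, 28 had only the taller member overlapped, 20 had both, 2 had neither and 0 had only the lower. Among the 41 groups with a ratio of 0.8 or more, only the taller was overlapped in 10, both in 15, only the lower in 5 and neither in 10. Of the 8 groups with only the lower member overlapped, 5 therefore had nearly equal heights. Adjacent lone peaks 2 to 20 kb apart showed a similar shift with the ratio. Under 0.4, only the taller was overlapped in 66.5%, both in 28.5%, neither in 4.47% and only the lower in 0.559%. At 0.8 or more the same classes made up 22.9%, 32.6%, 33.3% and 10.4%. In groups of 2 the shares were 56%, 40%, 4% and 0% under 0.4, and 24.4%, 36.6%, 24.4% and 12.2% at 0.8 or more.

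Under the 1 bp rule, the lower member was overlapped more often beside an overlapped taller member than its height alone gave. Beside an overlapped taller member, 77 of 144 lower members were overlapped (53.5%, 45.3 to 61.4), while lone peaks of the same fragments gave 39.0%. Beside a taller member that was not overlapped, 8 of 51 were (15.7%, 8.17 to 28.0), against 24.5% for lone peaks of the same fragments, a value inside that interval. Across 2 to 20 kb, the lower of adjacent lone peaks was overlapped in 43.5% (39.2 to 48.0) of 485 cases beside an overlapped taller peak, against 38.7% at the same fragments. That interval overlaps the one for groups of 2, and whether the values of groups and lone pairs differ was not tested. Under the stricter rules the value of 53.5% became 44.8% (36.6 to 53.2, against 37.6%) with overlap of at least 50% of both peaks and 44.2% (36.2 to 52.5, against 36.8%) with summits within 100 bp, and in both cases the lone-peak value lay inside the interval. With only EBF1-H240A peaks of a −log10 q of at least 10 it was 42.3% (33.9 to 51.1), against 29.7%. Without chromosome 17 it was 52.7% (44.2 to 61.0), against 37.3%. In both of these settings the lone-peak value lay below the interval.

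A part of the 1 bp overlaps came from single EBF1-H240A peaks that reached over both members. This was so in 8 of the 78 groups with both members overlapped. In 7 of them the summits lay 406 to 474 bp apart and the EBF1-H240A peaks were 662 to 870 bp wide. The eighth, on chromosome 11 at 70817077 to 70818183, had a spacing of 723 bp and an EBF1-H240A peak of 591 bp. The EBF1-H240A summit lay 10 to 56 bp from the taller member in 6 of the 8 groups. It lay at the lower member on chromosome 8 at 122301732 to 122302436 (12 bp away; 47 and 44 EBF1-wt fragments) and on chromosome 17 at 31883252 to 31884056 (11 bp away; 98 and 80 fragments). Without these 8 groups, 56.9% (52.0 to 61.6) of members were overlapped, against 52.4% of lone peaks at the same fragments, and 50.7% (42.4 to 59.0) of lower members beside an overlapped taller member, against 38.9%. This setting removed only overlapped members and left the lone peaks as they were, so both shares of members had to fall.

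In groups of 2, lower members without an EBF1-H240A call were mostly low, while taller members without one were of middle height. The 110 lower members not overlapped had a median of 32.5 EBF1-wt fragments (21 to 71). Multiplied by the lone-peak ratio of 0.440, this is 14.3 EBF1-H240A fragments (9.23 to 31.2), near the lower end of the EBF1-H240A list, which begins at 10. The 51 taller members not overlapped had a median of 48 fragments (27 to 89), close to 49 over all EBF1-wt peaks. After scaling this is 21.1 (11.9 to 39.1), between the lower quartile (18) and the median (25) of the EBF1-H240A list. Why these members had no call was not tested. No taller member of 100 or more fragments in a group of 2 lacked an overlap. Tall lone peaks were nearly all overlapped too, with 91.6% at 87 to 120 fragments and 99% at 121 to 322. The ratio of 0.440 comes from sites called in both lists, which can raise it.

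In 70 groups of 2, each member had an EBF1-H240A peak of its own, which by itself requires nearby summits and so a similar spacing. EBF1-H240A summits lay a median of 20.5 bp from taller and 21 bp from lower members. The spacing measured with EBF1-H240A differed from that with EBF1-wt by a median of 26 bp, and by at most 50 bp in 50 of the 70 groups (71.4%). The largest difference was 419 bp. Adjacent lone peaks with own EBF1-H240A peaks differed by a median of 38 bp, with 65% within 50 bp. Spacing in the EBF1-H240A list ran from 442 to 2020 bp, with 1 group beyond 2000 bp.

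The order of heights was mostly the same in both lists. Leaving out 1 group of equal EBF1-wt pileups, the taller EBF1-wt member was also the taller EBF1-H240A member in 54 of 69 groups (78.3%, 67.2 to 86.4), against 76.3% of adjacent lone pairs. The order was turned in 11 groups (15.9%) and the EBF1-H240A pileups were equal in 4 (5.8%). In adjacent lone pairs these shares were 22.7% and 0.948%, and whether groups and lone pairs differ was not tested. In the 38 groups whose EBF1-wt counting intervals did not overlap, the order was the same in 33 (86.8%, 72.7 to 94.2). In the 27 groups whose EBF1-H240A intervals did not overlap it was the same in all 27 (100%, 87.5 to 100), so every turned order rested on EBF1-H240A counts that counting error does not separate. The median log2 ratio of taller to lower fragments was 0.79 for EBF1-wt and 0.69 for EBF1-H240A (−0.78 to 2.97). These groups were kept because EBF1-H240A was called at both members, which leaves out lower members that fell under its calling limit.

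**Figure D4:**
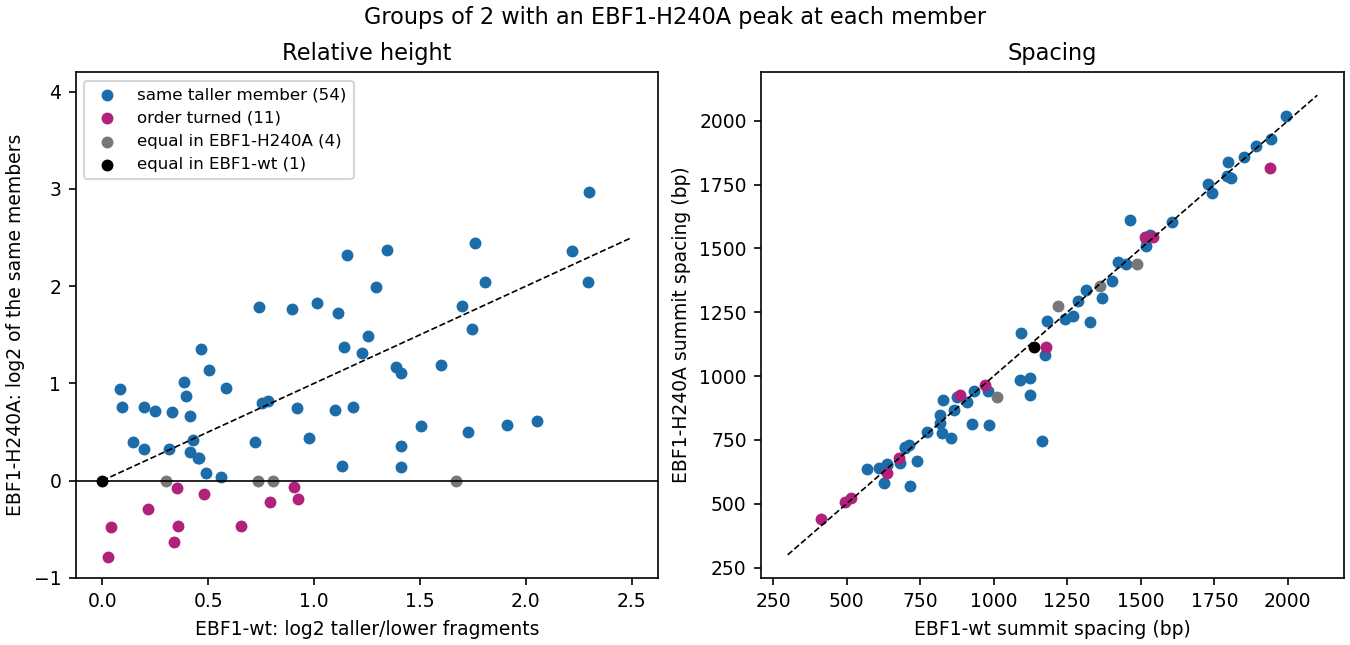
The 70 groups of 2 with an EBF1-H240A peak at each member. Left, log2 ratio of fragments of the taller to the lower EBF1-wt member in EBF1-wt (horizontal) and EBF1-H240A (vertical), where points under the line at 0 have the order turned (11 groups). Right, summit spacing in bp in both lists, with points along the dashed line of equality and a median difference of 26 bp.

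The 10 groups with the highest member, named by that rule, had 211 to 322 fragments at that member, and its EBF1-H240A overlap was present in each. Among lone peaks of 121 to 322 fragments, 99% were overlapped as well. Over all groups of 2, both members were overlapped in 39.6% and only the taller in 34%. Of the 10 named groups, 8 held 2 peaks. Both members were overlapped in 6 of these 8, with the same order in each, and only the taller in the other 2. The most unequal was on chromosome 11 at 118993387 to 118995515, where a peak of 322 fragments had a neighbour of 38 at 1690 bp. EBF1-H240A had 320 fragments at the taller member and no peak at the lower, whose nearest EBF1-H240A summit was 1683 bp away. On chromosome 2, at 127160700 to 127161842, a peak of 239 fragments had a neighbour of 34 at 824 bp, and EBF1-H240A was called only at the taller, with 171 fragments.

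Other tall groups were called for EBF1-H240A at both members. On chromosome 17, at 29199375 to 29201019, the members had 272 and 107 EBF1-wt fragments and 155 and 30 EBF1-H240A fragments, 1090 bp apart. On chromosome 7, at 105634785 to 105637253, they had 116 and 234 against 57 and 202 fragments, 1892 bp apart. A spacing of 816 bp separated 165 and 234 fragments on chromosome 4 at 44718032 to 44719228, where EBF1-H240A had 65 and 143. In these 3 groups the members were proportionally more unequal for EBF1-H240A than for EBF1-wt. The members on chromosome 9, at 103390959 to 103392595, had 232 and 118 EBF1-wt fragments and were closer in height for EBF1-H240A, with 87 and 64. The group on chromosome 16 at 16864034 to 16865939 had 211 and 43 fragments, with 132 and 32 for EBF1-H240A, 1519 bp apart.

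On chromosome 6, at 115532264 to 115533959, the order depended on the measure of height. The left member had 187 fragments (161 to 216) and a 40.7-fold enrichment, and the right 244 fragments (214 to 277) and a 31.2-fold enrichment. EBF1-H240A had 39 and 79 fragments, the same order as the EBF1-wt fragments and the opposite of the EBF1-wt folds. Over all groups of 2, using fold in place of pileup gave a median ratio of 0.612 and the same taller member in 74.3% (63.0 to 83.1) of 70 groups.

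Of the 5 closest groups of 2, 4 had members under 50 fragments. A spacing of 317 bp on chromosome 6 at 124679867 to 124680386 joined peaks of 34 and 25 fragments, and 325 bp on chromosome 11 at 115228572 to 115229176 joined peaks of 29 and 44. The third, on chromosome 5 at 143610885 to 143611568, had 33 and 28 fragments at 387 bp. None of these 3 groups was overlapped by EBF1-H240A. The other two, on chromosome 8 (44 and 47 fragments, 406 bp) and on chromosome 2 at 144190301 to 144190981 (69 and 86 fragments, 410 bp), each lay under 1 EBF1-H240A peak.

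Only 8 groups of 2 had EBF1-H240A at the lower member alone. Their taller members had 55 to 74 EBF1-wt fragments, or 24.2 to 32.5 after scaling by 0.440, and their EBF1-H240A peaks 18 to 31 fragments. The tallest was on chromosome 2 at 71623389 to 71625067, where the overlapped member had 65 EBF1-wt fragments and the other 74, 1154 bp away. The most unequal was on chromosome 14 at 65994060 to 65995703, with 35 fragments (24.4 to 48.7) at the overlapped member and 70 (54.6 to 88.4) at the other, 1386 bp apart, and 24 EBF1-H240A fragments at the former. On chromosome 4, at 106925680 to 106926435, the overlapped member had 37 fragments (26.1 to 51.0) and the other 67 (51.9 to 85.1), 501 bp apart. These were the 2 groups of the 8 whose counting intervals did not overlap. In the other named ones, on chromosome X at 35586309 to 35587657 (56 and 69 fragments) and on chromosome 5 at 115484763 to 115485609 (46 and 61 fragments), the intervals overlapped.

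Groups with neither member overlapped included some of clear height. The tallest was on chromosome 4 at 116796774 to 116798061, with 31 and 89 fragments 832 bp apart and the closest EBF1-H240A summit 403417 bp away. On chromosome 2, at 167679059 to 167679924, the members had 28 and 81 fragments. Chromosome 17 held 2 of the 5 named groups, at 34462536 to 34463675 (76 and 59 fragments, 889 bp apart) and at 83664676 to 83666969 (35 and 75 fragments, 1904 bp apart). In the group of 76 and 59 fragments the folds were only 6.15 and 7.69, under the member median of 8.34. Taller members of the other named groups had folds of 12.2 to 16.9. The fifth, on chromosome 7 at 20198752 to 20200909, had 43 and 76 fragments 1918 bp apart. Over these 5 groups the nearest EBF1-H240A summit was 35812 to 634750 bp away from the closer member.

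Among the 11 groups with turned order, the 5 with the largest turns were of low or middle height. The EBF1-wt members on chromosome 17 at 87367455 to 87369256 had 63 and 40 fragments, and EBF1-H240A had 13 and 18. On chromosome 5, at 135438062 to 135439675, the values were 48 and 38 against 11 and 17. The group on chromosome 10 at 59494310 to 59495088 had 97 and 56 against 18 and 21, with summits 412 bp apart. At the last 2, on chromosome 5 at 93696433 to 93697665 and on chromosome 7 at 149626663 to 149628853, 40 and 76 stood against 33 and 29, and 32 and 41 against 18 and 13. The EBF1-H240A counts of each differed by 3 to 6 fragments, less than counting error resolves.

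The 30 members of the 10 groups of 3 had a median of 64.5 fragments, against 51 over all members. EBF1-H240A overlapped 16 of the 30 members (53.3%, 36.1 to 69.8), where lone peaks of the same fragments gave 61.0%. All 3 members were overlapped in 2 groups, 2 in 4 groups, 1 in 2 groups and 0 in 2 groups. The tallest member was overlapped in 7 of the 10, and it was the middle one in 3.

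Examples of groups of 3 were chosen after their values were seen. On chromosome 8, at 124867620 to 124869848, the EBF1-wt members had 187, 102 and 65 fragments and EBF1-H240A 57, 28 and 29. On chromosome 5, at 137228881 to 137231469, the members had 183, 105 and 73 fragments and EBF1-H240A 76, 41 and 37, with spacings of 994 and 935 bp. Every member of these 2 groups was overlapped. The tallest group of 3, on chromosome 19 at 44450950 to 44453692, had 215, 137 and 34 EBF1-wt fragments, with 123 and 80 for EBF1-H240A and no call at the third. At the other extreme, the group on chromosome 7 at 17313931 to 17315436 had 92, 48 and 30 EBF1-wt fragments, and the closest EBF1-H240A summit was 7548 bp away. The group on chromosome 19 at 6398591 to 6401349 broke the order of heights, as its middle and tallest member (67 fragments) was not overlapped while members of 25 and 50 fragments were. The EBF1-H240A summit at the member of 25 fragments lay 195 bp away, beyond the 100 bp of the stricter rule. EBF1-H240A also had a peak of 14 fragments there that overlapped no member. The nearest EBF1-H240A summit to the middle member was 447 bp away.

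Members were found on every chromosome examined, in unequal shares. They made up 16.4% (11.3 to 23.3) of the EBF1-wt peaks on chromosome 16, 14.2% (10.5 to 18.9) on chromosome 17 and 14.0% (9.44 to 20.3) on chromosome 19, against 2.94% (1.5 to 5.7) on chromosome 1 and 2.96% (1.16 to 7.37) on chromosome 13. These chromosomes were picked for their extreme shares, and whether chromosomes differ was not tested. In number, chromosome 11 had most, with 50 members in 25 groups, followed by chromosome 5 with 47 in 22.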

How the data were processed

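EBF1 ChIP-seq peak lists of 1 EBF1-wt and 1 EBF1-H240A library were used; the inputs entered only through the peak caller. The submitters' processing notes name MACS2 2.1.0.20150731, HOMER 4.6, Picard, SAMtools, Bowtie2, bcl2fastq 1.8.4 and the mm9 build, without settings. Each library has its own list of start, end, summit and width per the file headers, and the widths show that positions are 1-based. The pileup, as deposited, is the coverage signal where a peak is highest. Fold enrichment, the deposited ratio of pileup to local background, and the q-values and p-values, deposited on the −log10 scale, are the authors' and only described or filtered peaks.

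EBF1-wt pileups were divided by 0.635, the value of 1 fragment, which made 100% of distinct values whole within 0.02 pileup units; EBF1-H240A pileups were whole as deposited. Summits at most 2000 bp apart were chained into groups on chromosomes 1 to 19 and X, leaving out 3 EBF1-wt and 2 EBF1-H240A peaks. Overlap needed 1 bp in common, and each EBF1-wt peak was paired with the EBF1-H240A peak of largest overlap. The taller member of a group had the higher pileup. Adjacent lone peaks 2 to 20 kb apart and lone peaks weighted by deciles of fragments served as comparisons. Python 3.11.15, numpy 2.4.6, pandas 2.3.3, scipy 1.17.1 and matplotlib 3.10.9 were used. On a simulated list of 535 peaks with groups set far apart, 8 of 8 quantities were recovered. This checked the code for grouping, spacing and overlap only, not for heights, their order or height matching. With 1 library per protein no test was run.

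Members, rules and alternatives were chosen with earlier results of these data known. Groups were named by the highest member pileup (10), 4 or more members (0 found), closest summits (5), only the lower or neither member overlapped (5 each, by height), and turned order (5, by the product of both log2 ratios). Alternatives were summits within 1000 or 5000 bp, a −log10 q of at least 10 in either list, no chromosome 17, overlap of at least 50% of both peaks, summits within 100 bp, and fold as height. The gene table at hand is for another build, so peaks were not tied to genes and no mm9 sequence was used here.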

Additional observations from a re-analysis of the deposited data

How the results depend on the processing

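The main limits are 1 library per protein, lists called separately for each library, and intervals too coarse to separate sites under about 300 bp apart. Among 58 values from other settings, 43 lay inside the interval of the reported value (counts: less than 1.5 times away) and 15 did not. The window sets the member count (424) and the median spacing (994 bp): with summits within 1000 bp they were 216 and 713 bp, and with 5000 bp 792 and 1911 bp. With EBF1-wt peaks of a −log10 q of at least 10, there were 218 members, 71.1% of members and 59.5% of lone peaks were overlapped, both members were overlapped in 53.4% of groups of 2 and only the taller in 27.2%. For this limit in EBF1-wt no lone-peak share at the same fragments was computed, so its gap is not matched for height. With EBF1-H240A peaks of that q, the shares of members, lone peaks and groups with both were 46.9%, 39.1% and 26.9%. Overlap of at least 50% of both peaks gave 52.4% of members and both in 30.5% of groups, and summits within 100 bp gave both in 31.5%. The value of lone peaks at the same fragments lay inside the members' interval under both stricter overlap rules (51.4% and 51.2%). That value lay below the interval with the q limit in EBF1-H240A (42.0%, against 42.2 to 51.7) and without chromosome 17 (51.8%, against 53.8 to 63.6). Without groups under 1 EBF1-H240A peak it lay inside (52.4%), but that setting removed only overlapped members. The share with the same taller member stayed between 74.3% and 82.0% in all alternatives. Leaving out groups under 1 EBF1-H240A peak, and the alternatives of the height-matched shares, were added after seeing the data. Of these 26 values, 16 lay inside and 10 outside. Height-matched lone-peak shares have no interval of their own. For them the limit was a band around the reported value, as wide as the interval of the unmatched lone-peak share. No paired analysis was possible because there was 1 library per protein.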

Other observations

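The EBF1-H240A list had close neighbours of its own. Within it, 232 of 2757 peaks (8.41%) had another EBF1-H240A summit within 2000 bp, in 107 groups of 2 and 6 groups of 3, with a median spacing of 918 bp and none under 378 bp. Of these 113 groups, 75 (66.4%) overlapped 2 or more EBF1-wt peaks, 32 (28.3%) overlapped 1 and 6 (5.31%) overlapped none. In 6 of the 32, both EBF1-H240A peaks lay over the same EBF1-wt peak, and in 26 the EBF1-H240A neighbour had no EBF1-wt peak. The tallest EBF1-H240A group, on chromosome 11 at 118994939 to 118996353, had 320 and 15 fragments 992 bp apart; its lower member had no EBF1-wt peak, while the low EBF1-wt neighbour of the same tall site, described above, lay on its other side.

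EBF1-H240A groups with no EBF1-wt peak were of modest height. The tallest 2 were on chromosome 17, at 35341607 to 35342622 (17 and 48 fragments, 638 bp apart) and at 48439398 to 48440510 (17 and 43 fragments, 730 bp apart). New EBF1-H240A summits inside EBF1-wt groups were rare: 1 of the 207 EBF1-wt groups held the summit of a peak called for EBF1-H240A alone. Such a summit lay within 2000 bp of 7 of 424 members (1.65%) and of 37 of 3995 lone peaks (0.926%).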
